A study of Dicentrarchus labrax with 35 samples.

Results

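The 200 probes described here were selected on measured values, as probes whose level was higher in the gonads of older European sea bass (*Dicentrarchus labrax*) than of younger ones and was low in 3 of the 5 fish of the group called FS. They came from a custom 1-colour Agilent array with 24200 sea bass probes for 11705 target sequences, so the members stand for 1.71% of the targets. The selection used the log2 values deposited by the authors. A probe was kept where the mean of the 15 FF, SF and SS arrays exceeded the mean of the 15 F and S arrays by at least 0.5, and where the mean of the arrays FS1, FS2 and FS4 lay at least 1 below that of FF, SF and SS. These limits left 1026 probes of 625 targets. The lowest probe of each target was kept, and the 200 targets with the lowest FS1, FS2 and FS4 values relative to FF, SF and SS formed the set.

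Gonads of 35 fish were measured, 1 fish on each array. At T2, 332 days post fertilization by the labels, testes came from FS (5 fish, fast growing and then held back by reduced feeding), SF (5 fish, slow growing and then speeded up by overfeeding), FF (5 fish, fast growing and kept so by overfeeding) and SS (5 fish, slow growing and then on reduced feeding). At T1, 133 days post fertilization, undifferentiated gonads came from F (7 fish, those of greatest standard length) and S (8 fish, those of smallest standard length). FF and FS derived from the F fish, SF and SS from the S fish, and by the study's methods all T2 fish were males and each T2 group was kept in a tank of its own, so that feeding regime and tank cannot be told apart. By the same methods the testes still held no spermatozoa.

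A fish testis consists of germ cells enclosed by Sertoli cells, with steroid-producing Leydig cells, vessels and connective tissue between them. In sea bass the gonads stay undifferentiated for months after hatching, and larger fish more often become females. As the testis forms, somatic cells and germ cells multiply and take up their own programmes of transcription. In whole gonads, fewer cells of a type and less RNA per cell cannot be told apart. The probes are named by contigs or clone reads and were not paired with gene names here, so neither the labelled tissues nor the members' functions could be checked against marker genes, and no sequence is shown.

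Levels below are log2 intensities after background correction and quantile normalization over all arrays, and a difference of 1 is a doubling. The share of spots well above background was 67.2% to 87.8% on the T2 arrays, with 71.8% to 76.4% on FS1, FS2 and FS4, and 43.2% to 74.4% on the T1 arrays. Of 43803 sea bass spots, 213 were flagged on FS1, 180 on FS2, 133 on FS3 and 114 on FS4. On the other T2 arrays 15 to 122 were flagged, and on the T1 arrays 65 to 148. Median signal at T2 ran from 178, on FS1, to 752. There were 9 slides and 2 scanning sessions, with 23 arrays in the first and 12 in the second. FS1, FS2, FS3 and FS4 shared a slide, FS5 lay on a slide with SF1, SF2 and SF3, and FF2 lay on a slide with S2, S3 and S4. All F arrays, S1 to S4 and FF2 were scanned in the second session.

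The members were bright probes whose level stood at 3 heights. Their median level was 9.73 on FS1, 9.44 on FS2 and 9.47 on FS4, against 12.25 on FS3 and 12.06 on FS5. The medians of the 15 FF, SF and SS arrays lay between 11.86 and 12.21, and those of the 15 F and S arrays between 10.23 and 10.76. By this median the 3 low FS arrays were thus lower than every T1 array, which the limits of the selection favoured. FS3 and FS5 stood with or just above the other T2 arrays. By group the array medians averaged 12.01 ± 0.11 in SF, 12.05 ± 0.10 in FF and 12.04 ± 0.12 in SS (SD, n = 5 each), and 10.56 ± 0.20 in F (SD, n = 7) and 10.57 ± 0.12 in S (SD, n = 8). The median of all probes stayed between 8.43 and 8.49 on every array, which quantile normalization keeps nearly equal by construction.

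**Figure D1:**
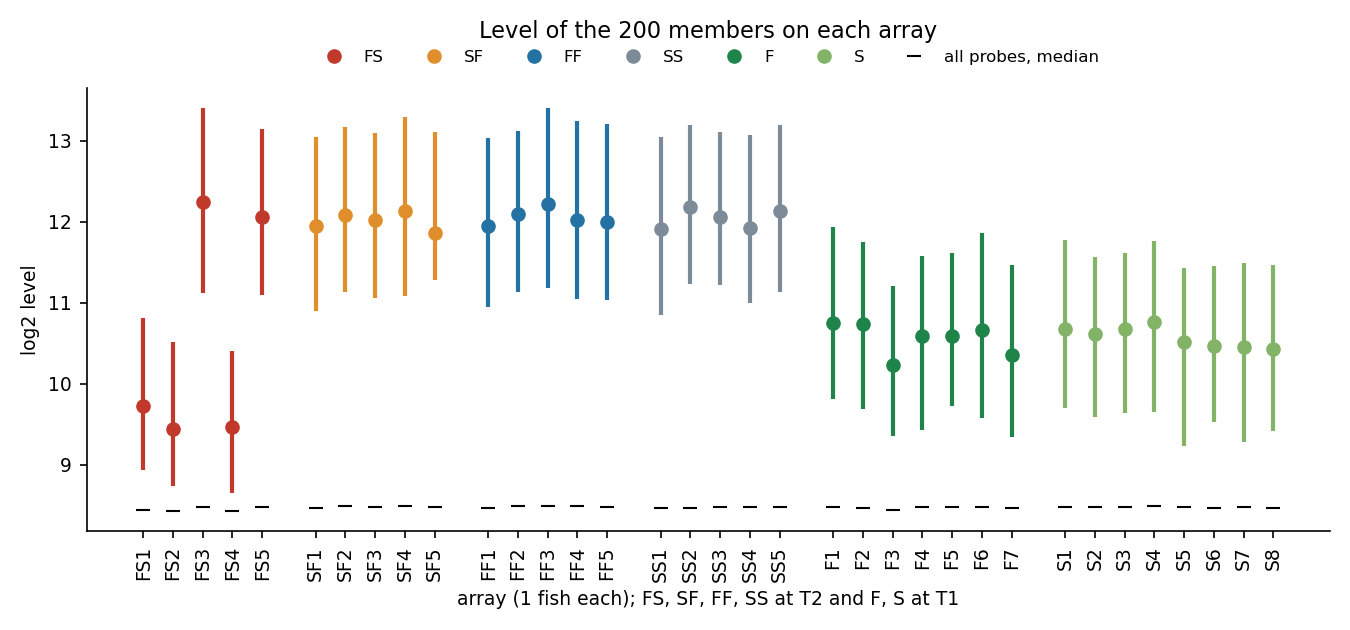
Median log2 level (points) and quartiles (bars) of the 200 members on each of the 35 arrays, with the median of all probes on the same array as a dash. FS1, FS2 and FS4 lie between 9.44 and 9.73, FS3 and FS5 at 12.25 and 12.06, the FF, SF and SS arrays between 11.86 and 12.21, and the F and S arrays between 10.23 and 10.76.

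The size of both differences was set by the selection and is given as a description. FF, SF and SS exceeded F and S by 0.52 to 6.73 on the log2 scale, with a median of 1.43, which is 2.69-fold. The upper end belonged to a probe described below that was well above background on 1 of 15 T1 arrays, so it is a difference from a level near background. FS1, FS2 and FS4 lay below FF, SF and SS by differences of -6.53 to -1.80, with a median of -2.26, which is 4.79-fold. Over all probes the median differences were 0.01 and -0.04. In 187 of the 196 members with a value on all the arrays concerned, FS1, FS2 and FS4 were all below all 15 FF, SF and SS arrays, which held for 17% of all probes. All 15 of these T2 arrays stood above all 15 T1 arrays in 77 of 196 members, against 6.51% of all probes. Both counts come from the arrays that chose the members, and their limits on the 2 differences were unequal.

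The selection set no limit of its own between the 3 low FS fish and the younger gonads, but this difference is the sum of its 2 contrasts. In the deposited values every member differed from FF, SF and SS by -1.836 or lower, so any member with a rise smaller in size had to lie below T1. The median rise in those values was 1.405, so for most members a level below T1 was fixed by the selection. FS1, FS2 and FS4 averaged below F and S in 168 of 200 members, with a median difference of -0.84 (1.80-fold) and a range of -4.72 to 4.34, the upper end being that of the same probe. The mean was more than 1 below T1 in 91 members, within 1 of T1 in 106 and more than 1 above T1 in 3. In 84 of 199 members all 3 low arrays lay below all 15 T1 arrays, against 17.2% of all probes. As a description of this selected set, close to as many members lay well under the level of undifferentiated gonads as stayed near it. Members that kept a clear part of the rise with age were few.

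**Figure D2:**
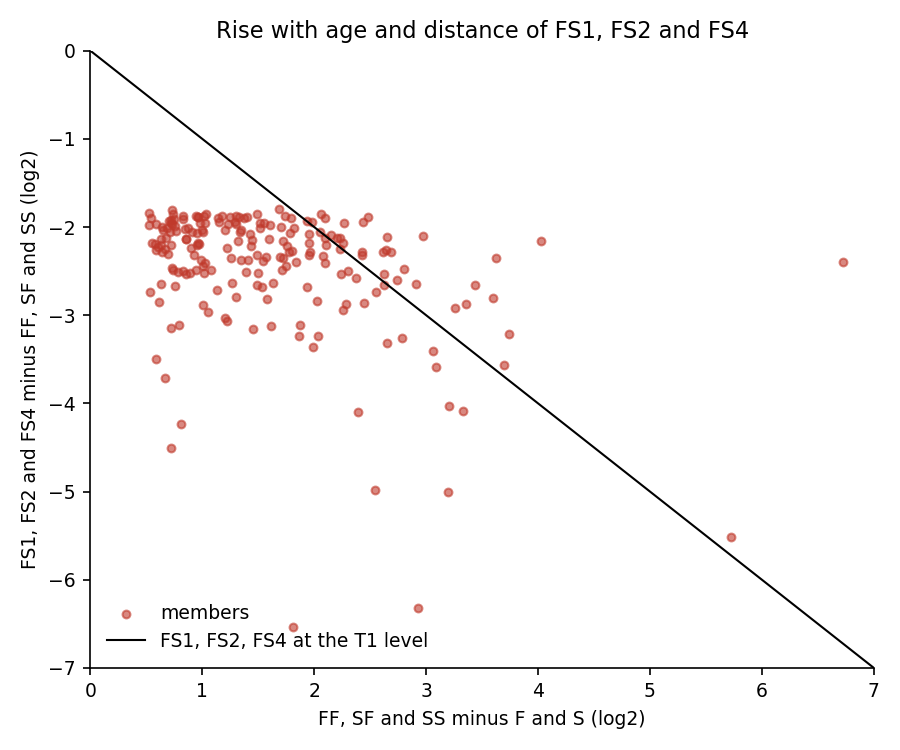
Each point is a member, with the difference of FF, SF and SS from F and S on the horizontal axis and the difference of FS1, FS2 and FS4 from FF, SF and SS on the vertical axis, both in log2. On the line FS1, FS2 and FS4 would equal T1. Below it lie 168 members, where the distance of the 3 FS fish was larger than the rise with age. The selection, which in the deposited values ended at a difference of -1.836, fixed this side for members with a rise smaller in size.

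In the deposited values, the last member taken had a difference of FS1, FS2 and FS4 from FF, SF and SS of -1.836. The first target left out had the same value, and the next had -1.835. That tie was settled by the order of rows in the table. The smallest rise with age of a member was 0.503, and among probes as low in FS but short of the rise limit the nearest had a rise of 0.49. The edge of the set therefore fell within a continuous range and separated probes that hardly differed.

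CUST_6601_PI416070213, a probe of the contig SeabassC-CL4335Contig1, had the lowest FS values of the set. Its level was 8.65 on FS1, 8.22 on FS2 and 7.99 on FS4, against 15.26 on FS3 and 15.52 on FS5. In FF, SF and SS it had a lowest level of 13.87, a median of 14.99 and a highest of 15.62, and in F and S the lowest was 12.19, the median 12.94 and the highest 13.63. The 3 low FS fish lay far under every other fish of either age, and the T2 and T1 ranges did not meet. The mean was 8.28 ± 0.34 (SD, n = 3) in FS1, FS2 and FS4, 14.82 ± 0.47 (SD, n = 15) in FF, SF and SS and 13.00 ± 0.44 (SD, n = 15) in F and S, so that the 3 fish had a level 92.6-fold under that of FF, SF and SS. The target's 2 other probes gave differences of -6.29 and -6.03.

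CUST_773_PI416070213, for the clone read cDN28P0004J03.F.ab1, followed the same order. It stood at 9.12 on FS1, 9.04 on FS2 and 9.32 on FS4, against 15.81 on FS3 and 15.84 on FS5. The FF, SF and SS arrays ran from 14.71 to 16.06 with a median of 15.55, and the F and S arrays from 11.60 to 13.27 with a median of 12.50. Again the groups did not overlap, and the mean of the 3 low fish differed from that of T1 by -3.40. The difference from FF, SF and SS was -6.33, an 80.2-fold lower level, and the 3 other probes of the target gave -6.17 to -5.41.

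CUST_3784_PI415922062, for the clone read cDN30P0001A07.F.ab1, had the largest rise with age and, unlike most of the set, kept a large part of it in the low FS fish. Its level was 11.48 on FS1, 11.75 on FS2 and 11.86 on FS4, against 13.85 on FS3 and 12.95 on FS5. In FF, SF and SS it ran from 12.90 to 15.17 with a median of 13.89, and in F and S from 6.97 to 8.83 with a median of 7.29. The 3 low fish were below every other T2 fish and above every T1 fish. Among the T1 arrays it was well above background on 1 of 7 F arrays and on 0 of 8 S arrays. Its measured means were 13.98 in SS and 7.37 in S, and since the S level is only a bound, SS exceeded S at least 97.0-fold, where each S array counted at its own value for the probe or, if greater, at the dimmest value that passed as well above background there. It was the target's only probe, with a single spot.

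CUST_20078_PI416070213, for the clone read cDN33P0004N05.F.ab1, had the next largest rise and almost none of it in the low FS fish. It stood at 8.37 on FS1, 8.26 on FS2 and 7.95 on FS4, against 14.92 on FS3 and 14.15 on FS5. Its FF, SF and SS levels ran from 11.74 to 15.36 with a median of 13.64, and its F and S levels from 7.61 to 8.36 with a median of 7.98. FS1, FS2 and FS4 thus lay in or at the edge of the T1 range, with a mean only 0.21 above the T1 mean. It was well above background on 9 of 15 T1 arrays, on 3 of 7 in F and on 6 of 8 in S, so the T1 mean includes values near background. The 2 other probes of the target gave differences between the 3 low fish and FF, SF and SS of -5.12 and -4.27.

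**Figure D3:**
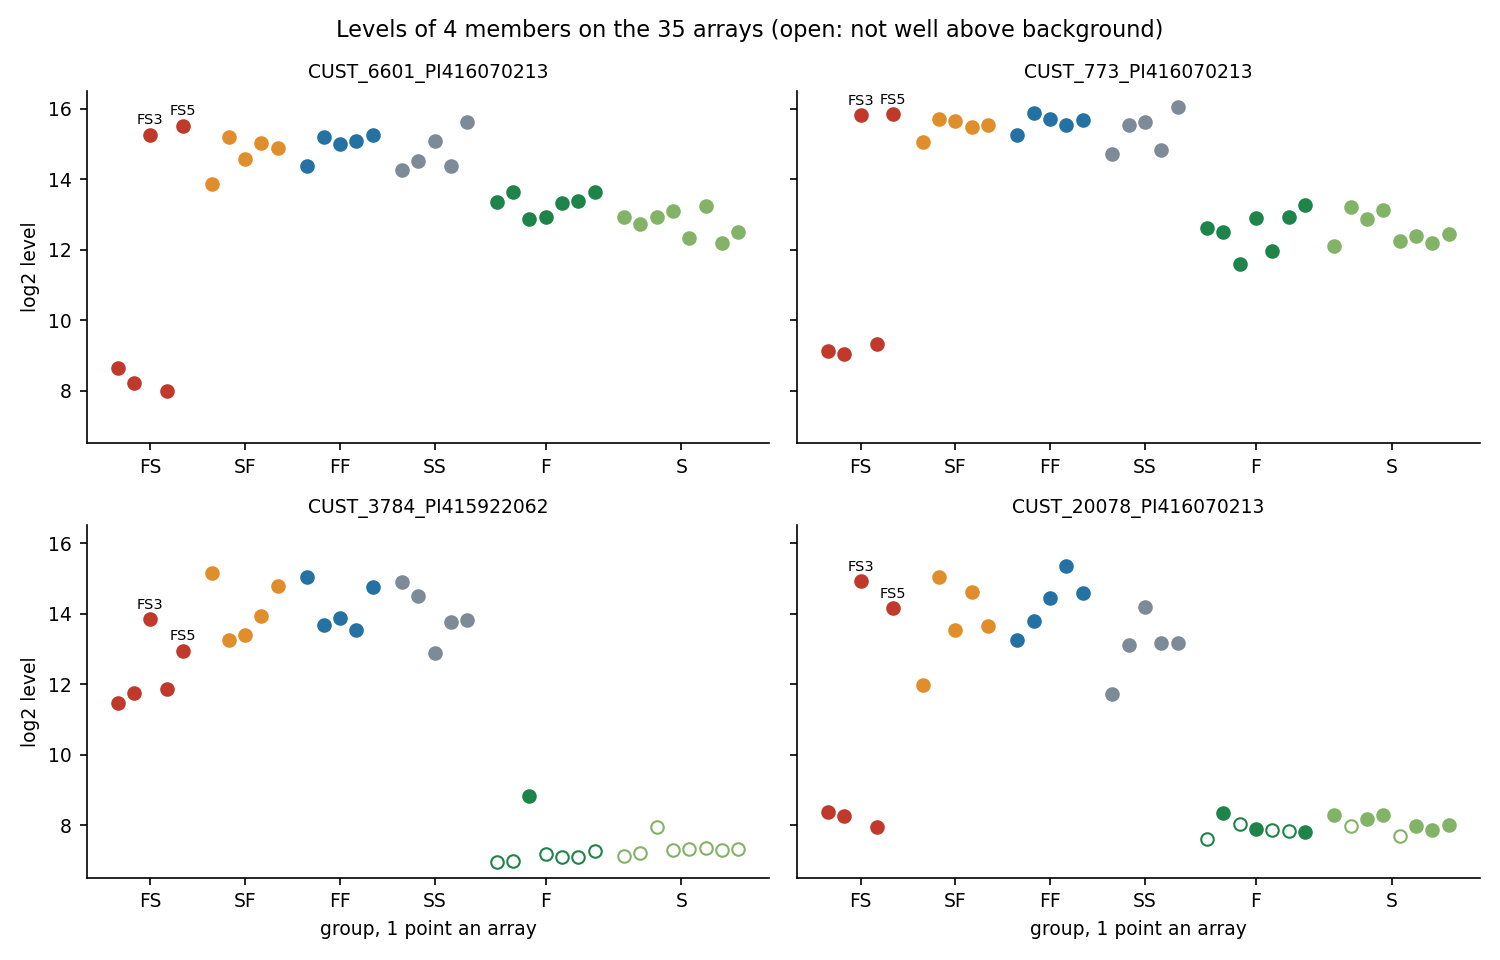
Log2 level of 4 members on each array, by group, 1 point a fish, with FS3 and FS5 marked and open points where the probe was not well above background. FS1, FS2 and FS4 are the lowest T2 fish for all 4 probes, lie under the T1 fish for CUST_6601_PI416070213 and CUST_773_PI416070213, near them for CUST_20078_PI416070213 and above them for CUST_3784_PI415922062.

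FS3 and FS5 were not used in the selection and are shown fish by fish, with no test, because FS was divided by measured values. Relative to the mean of FF, SF and SS, the median difference over the members was 0.17 on FS3, with a range of -1.83 to 1.68, and 0.03 on FS5, with a range of -2.64 to 1.81. The same difference was -2.07 on FS1, -2.37 on FS2 and -2.36 on FS4. Of the 198 members measured on FS3, 192 lay within the range of the 15 FF, SF and SS arrays and 2 below it, and of the 200 on FS5, 178 lay within it and 14 below it. For most members these 2 fish of the FS group thus lay among the levels of the other T2 groups. The members varied more over these 15 arrays than all probes (median SD of 0.49 against 0.25), which widens the range. The shares of all probes within it are not given here. The division of FS by measured values also favoured a likeness of FS3 and FS5 to the other T2 fish. On the slide that FS1 to FS4 shared, the 3 low fish differed from FS3 by a median of -2.40 over the members, against -0.01 over all probes. The selection on the 3 low fish favoured this, and an effect of the slide was not tested.

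The members were chosen on FS1, FS2 and FS4 together, so a likeness of these 3 fish over the members is built in. Over the 198 members measured on all FS arrays, their differences from the FF, SF and SS mean had correlations of 0.87 to 0.92 with each other, and FS3 and FS5 one of 0.59 with each other, against -0.22 to -0.09 between the 2 kinds of fish. These are descriptions across members that share the same subtracted mean. The median SD of a member was 0.20 among FS1, FS2 and FS4, against 0.15 over all probes. Of these 3 fish FS1 had the highest level in 142 members, FS2 in 26 and FS4 in 32. The like shares over all probes are not given, so this is only a description.

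The members varied more from fish to fish than all probes together, but the comparison was not matched for level and the members were bright probes. Among the 15 FF, SF and SS arrays their median SD was 0.49, against 0.25 over all probes, and among the 15 T1 arrays 0.43, against 0.33. A range of more than 3 among FF, SF and SS was found in 25 members and in 1.93% of all probes. In 13 of these 25 the 4 highest fish were the same, SS1, SS2, SF1 and FF1. This order and the wide range together were seen in 6.63% of the members with a value on all 15 arrays. Of all probes with such values 0.555% had both. These 13 were singled out after their values were seen. They lay at ranks 21 to 197 of the set.

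In these 13 members the high T2 mean rested on few fish. Their median level was 14.53 on SS1, 13.21 on SS2, 13.08 on SF1, 11.90 on FF1 and 11.45 on SF5, and between 9.34 and 10.26 on the other 10 arrays of FF, SF and SS. It was 8.06 on FS1, 8.07 on FS2 and 8.13 on FS4, against 9.65 on FS3 and 9.74 on FS5, and 7.79 to 9.63 on the T1 arrays. FS3 and FS5 were at the level of the 10 lower T2 fish and below the mean of all 15 in all 13 members. Without SS1, SS2, SF1 and FF1, a choice made after seeing the data, the median rise with age of these 13 members was 0.79 in place of 1.60, and the median difference of the 3 low FS fish was -1.25 in place of -2.38. Of the 13, 6 then missed a limit of the selection. Of the other 187 members 5 did, and their median rise was 1.51 in place of 1.40. The 4 fish came from 3 feeding groups. Between any 2 of the 13 members the correlation over the 15 arrays was at least 0.91. Picking members with the same 4 highest fish and a wide range over these arrays favoured such correlations.

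Of the remaining 187 members 12 also had these 4 fish highest, with smaller ranges of 1.17 to 2.98 over the 15 arrays, but the median of the 187 showed no such peak. It was 11.75 on SS1, 11.89 on SF1, 11.95 on FF1, 11.96 on SF5 and 12.06 on SS2. SS1, SF1, FF1 and SF5 were thus the 4 lowest T2 arrays outside FS by this median and were among the 5 highest for the other 13. Of the 15 arrays SS1 had the most members below the range of the other 14, with 50 below and 24 above. By the same measure FF4 had 33 below and 22 above, and SS5 had 12 below and the most above, 27. The shares over all probes are not given here.

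**Figure D4:**
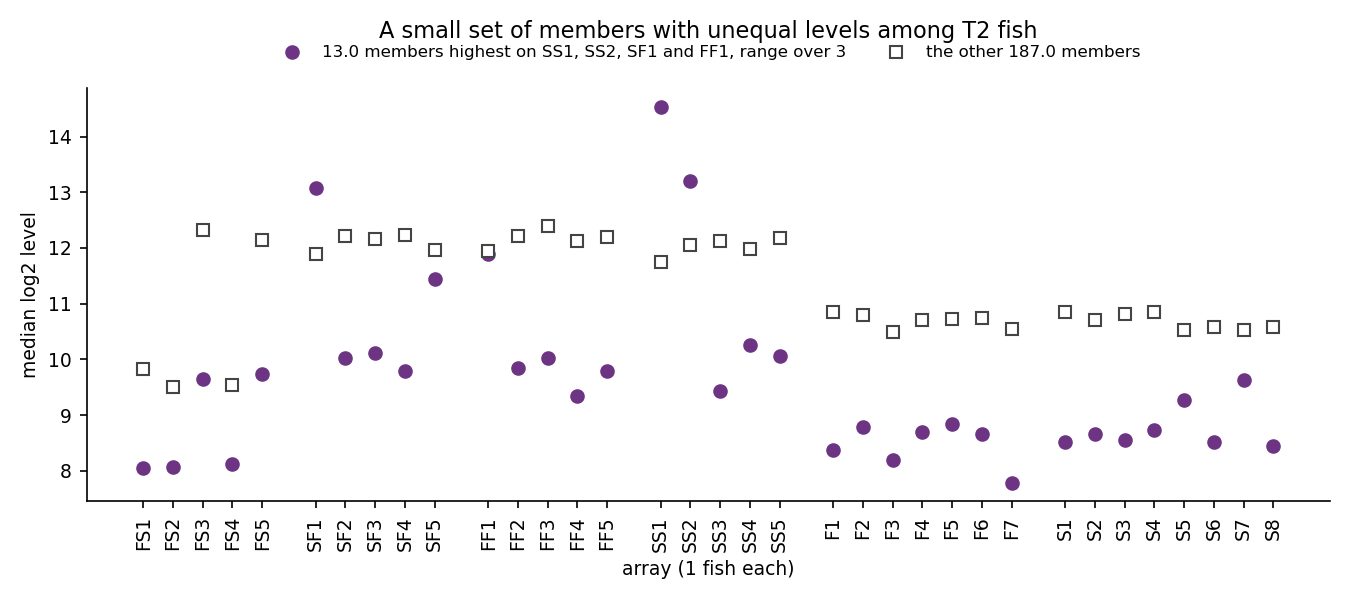
Median log2 level on each array of 13 members that were highest on SS1, SS2, SF1 and FF1 and had a range of more than 3 (filled circles) and of the other 187 members (open squares). The 13 members reach 14.53 on SS1 and lie between 9.34 and 10.26 on 10 of the FF, SF and SS arrays, while the other 187 stay between 11.75 and 12.39 on all 15.

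A single member outside these 13 had 2 separate levels among the T2 fish, and it too was singled out after its values were seen. It held rank 23, and its level was 7.11 to 7.42 on SF3, SF5, FF1, FF2 and SS5 and 10.69 to 12.87 on the other 10 arrays of FF, SF and SS. It was 7.44 on FS1, 7.00 on FS2 and 7.39 on FS4, against 11.67 on FS3 and 12.19 on FS5. Low values were thus found in fish of all 4 T2 groups, and the 3 low FS fish were not apart from the 5 others. Its T1 levels ran from 7.18 to 10.68. A gap of more than 2 between neighbouring levels among the 15 arrays was found in this member and in 1 of the 13, and in 0.178% of all probes.

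Other probes for the same targets entered the same selection, which kept only the lowest probe of each target. They read the same RNA of the same fish, for targets already chosen for a low FS level. Their likeness to the members is therefore not independent support. Of the 200 targets 96 had other probes, 193 in all. The mean of FS1, FS2 and FS4 was at least 1 below that of FF, SF and SS for 187 of these 193 probes (96.9%), against 10.5% of all probes, and the median difference was -2.04. Both the rise of at least 0.5 and this lower level were found in 181. In 91 of the 96 targets every other probe thus showed the lower level. In 6 probes of 5 targets it was smaller than 1 or absent, and 4 of the 6 were higher in FS1, FS2 and FS4. The widest disagreement was in a target whose member had 9.64 in the 3 low FS fish, against 13.20 in FF, SF and SS, while another probe of the same target had 15.30 in the 3 fish, against 13.39, and the third probe followed the member. In another of the 5 targets neither other probe showed the lower level, with differences of 0.39 and 0.02 against -1.96 for the member. Values of both targets are uncertain for this reason. The member with 2 levels was also among the 5 targets.

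**Figure D5:**
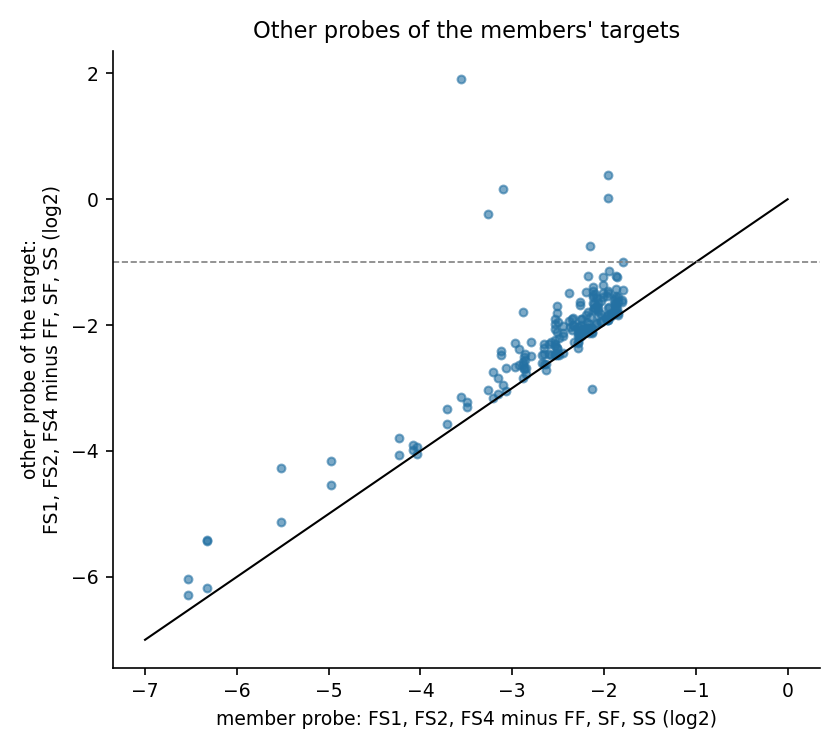
Difference of FS1, FS2 and FS4 from FF, SF and SS in log2 for the member (horizontal) and for each other probe of the same target (vertical), 193 probes of 96 targets, with the line of equality and a dashed line at -1. All but 6 probes lie at or below -1, and the exception farthest from its member stands at 1.91 for a member at -3.56.

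A rise with age was found in each feeding history outside the 3 low FS fish. The T1 gonads were undifferentiated and of unknown future sex, while all T2 fish were males. Age, differentiation and sex make-up therefore cannot be told apart in this rise. By the study, the groups derived from F later held a larger share of females than those derived from S. The median over the members was 1.43 for FF minus F, 1.48 for SF minus S and 1.43 for SS minus S. Over all probes it was 0.015, -0.009 and 0.022. In these 3 differences 184, 185 and 189 members rose by at least 0.5, and the shares of all probes are not given. SF and SS share the S fish, and all 3 differences overlap with the selection, so they have no test. For FS against F, the line from which it derived, the median was 1.53 on FS3 and 1.43 on FS5, against -0.72 on FS1, -0.98 on FS2 and -1.01 on FS4. Most T1 and T2 arrays were scanned in different sessions. Within the first session FF, SF and SS exceeded S by a median of 1.64 (14 and 4 arrays), against 0.02 over all probes. On the slide that held both ages FF2 exceeded S2, S3 and S4 by 1.42, against 0.01 over all probes. These arrays took part in the selection, so a higher T2 level was favoured here too. An effect of session or slide was not tested.

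The comparisons of growth and feeding within an age were tested with limma over all 24200 probes. The selection averaged over the compared groups and did not use their differences. It could still admit members raised by a few fish, as in the 13 above, so the tests are not wholly free of it. Calls required a 1.5-fold change or more together with an adjusted p (Benjamini-Hochberg) below 0.01. The p-values measure the spread between these individual fish. FF and SS had no slide in common, nor had SF and FF, so in these comparisons group and slide cannot be told apart. None of the 200 members was called in any of the 4 comparisons, though single settings called 1 member, as given below.

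F against S asked whether the members differed with early growth, before sex differentiation is visible in histology. By the study, its first molecular signs come earlier than this sampling. limma called 0 members and 0% of all probes. At an unadjusted p under 0.05, 16 members were higher in F, against 11.3% of all probes, and 11 were lower in F, against 9.1%. The members' log2 differences had a median of 0.05, quartiles of -0.13 and 0.21 and a range of -1.25 to 0.85. Both counts were thus smaller shares of the members than of all probes, and the smallest adjusted p of a member by limma was 0.0897. Among the arrays of the second session the median was -0.09, and on the slide with F5, F6, F7 and S1 it was -0.20.

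FF against SS compared sustained fast with sustained slow growth in the testis. limma called 0 members and 0.0992% of all probes. At an unadjusted p under 0.05, 24 members were higher in FF, against 11.1% of all probes, and 15 were lower in FF, against 7.75%. The median difference was 0.09, with quartiles of -0.26 and 0.39 and a range of -2.50 to 1.66. Both counts were thus close to the shares of all probes. CUST_20078_PI416070213 averaged 14.29 ± 0.80 in FF and 13.08 ± 0.87 in SS (SD, n = 5 each), a difference of 1.21 ± 0.47 (SE) with an adjusted p of 0.2 by limma.

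SF against SS compared fish that were speeded up with fish that stayed slow. limma called 0 members and 0% of all probes. At an unadjusted p under 0.05, 17 members were higher in SF, against 9.64% of all probes, and 9 were lower in SF, against 8.13%. The median difference was 0.05, with quartiles of -0.20 and 0.32. Both counts were again smaller shares of the members than of all probes. On the slide that held SF4, SF5, SS1 and SS2 the median was 0.28.

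In both comparisons with SS the member closest to a call was the same probe, at rank 115, singled out after its values were seen. Its level was 16.78, 17.16, 17.02, 16.99 and 16.93 on SF1 to SF5, and 16.76, 16.93, 17.03, 17.35 and 17.17 on FF1 to FF5, against 16.33, 16.50, 16.69, 16.66 and 16.51 on SS1 to SS5. All 10 fish of SF and FF were thus above all 5 of SS, which both comparisons share. limma gave 0.51 ± 0.12 (SE) for FF against SS with an adjusted p of 0.0651, and 0.44 ± 0.10 (SE) for SF against SS with an adjusted p of 0.0988. With control spots kept in the quantile normalization, as in the deposited log2 values, the differences were 1.29 and 1.22 and the member was called in both (adjusted p of 0.00522 and 0.0048 by limma). That setting called 0.347% of all probes for FF against SS and 0.19% for SF against SS, against 1 of 200 members in each. Control spots for spiked-in RNA were unequal between these groups. Relative to the 75th percentile of sea bass spots, their mean log2 signal was 3.08 to 5.56 on the SS arrays. It was -2.58 to 1.25 on the FF and SF arrays. Whether this moved the call was not tested.

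SF against FF compared testes of fish on the same late feeding regime after different early growth. limma called 0 members and 0% of all probes. At an unadjusted p under 0.05, 3 members were higher in SF, against 3.06% of all probes, and 2 were lower in SF, against 2.74%. The median difference was 0.01, with quartiles of -0.24 and 0.22. The smallest adjusted p of a member by limma was 0.799. With a median standard error of 0.27 for a member's difference in this comparison, against 0.14 over all probes, moderate differences between single members could not be resolved.

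The members also shared a high level, and at T2 most were well measured. A probe near background cannot be much lower in FS1, FS2 and FS4, so the selection favoured a high level in FF, SF and SS. Their median level in FF, SF and SS was 11.97, against 8.50 over all probes, and in F and S it was 10.56, against 8.49. On all 15 arrays of FF, SF and SS 197 members were well above background, against 64.5% of all probes. On all of FS1, FS2 and FS4 188 were, against 69.8%, so that the low values were measured levels for most members. On all T1 arrays only 161 were, against 40.3%, so for other members the rise rests partly on T1 values near background. In FS1, FS2 and FS4 5 members were well above background on no array, and in F and S 2 were, and for these the lower level is only a bound. Assembled contigs made up 40% of the members, against 28.2% of all targets and 36.6% of the 625 targets that passed both limits, and the median level of contig targets in FF, SF and SS was 9.59, against 8.33 for clone reads. The 14 sets of clone reads, numbered 22 to 35 in the target names, gave 0 to 19 members each.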

How the data were processed

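Whole gonads of 35 fish were hybridized to 1-colour arrays. The authors deposited scanner output from Agilent Feature Extraction with the intensity of each spot, not normalized, and a matrix of log2 values per probe. Per the study's methods these came from normexp background correction and quantile normalization. The members were taken from the deposited log2 values, and every level and test was computed from the deposited intensities with limma 3.58.1 in R 4.3.3. Median spot and local background intensities were corrected by normexp (offset 50), control spots were removed, log2 values were quantile normalized over all arrays, 2763 flagged spots were left out, and the median over its spots stood for each probe. No spot was saturated. Of the matrix values 98.3% lay within 0.1 of the values used, and 99.9% did when control spots were kept. No filter on low values was applied, so all 200 members entered every fit.

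Each comparison was fitted on its own arrays (lmFit, eBayes), and p-values were adjusted over all 24200 probes. The fits were tested on simulated data. A probe was well above background on an array where at least 0.5 of its spots were. The number of arrays limits the precision. The members, lists and tests were chosen with earlier results of these data known. Probe identifiers were printed for the 2 members with the lowest FS values and the 2 others with the largest rise. Alternatives changed the background correction, scaling, probe filter, samples in the fit, array weights, slide, scan and replicate block, or left out an array. No gene names were paired with probes here, so the planned marker and pathway lists were not used.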

Additional observations from a re-analysis of the deposited data

Results flagged for a closer look

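Within each group, the lowest and the highest fish were examined for the members' median and for the 4 named probes, 30 groups of values in all, and 3 stood far from the rest of their group by Dixon's criterion. Chance gives about 5% of groups. CUST_3784_PI415922062 stood at 8.83 on F3, against 6.97 to 7.29 on the other F arrays, and F3 was the only T1 array on which it was well above background. The same probe stood at 7.97 on S3, against 7.13 to 7.37 on the other S arrays, where it was not well above background on any. CUST_6601_PI416070213 stood at 14.37 on FF1, against 14.99 to 15.24 on the other FF arrays. The causes were not tested.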

How the results depend on the processing

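In F against S and SF against FF, 0 members were called under every alternative run. In FF against SS and in SF against SS, 1 member was called with the deposited log2 values and 1 with control spots kept in the quantile normalization (a setting chosen after seeing the data), and 0 under the other alternatives. Over all 24200 probes these settings called 83 and 84 for FF against SS, against 24 in the reported fit, and 51 and 46 for SF against SS, against 0. Leaving out 1 array gave 0 in all 4 comparisons. Same-numbered arrays deviated together (correlation over 0.1) in 3 of 7, 2 of 5, 3 of 5 and 4 of 5 pairs. The correlations ran from -0.24 to 0.78, and so few pairs cannot decide whether replicate numbers paired the fish. With a replicate block the count was 0 in each comparison. The members' median difference ranged, over arrays left out, from 0.02 to 0.11 for F against S, -0.02 to 0.13 for FF against SS, 0.02 to 0.13 for SF against SS and -0.04 to 0.05 for SF against FF. Within 1 slide, chosen after seeing the data, it was -0.20 for F against S and 0.28 for SF against SS. The median difference of FS5 from FF, SF and SS was 0.29 with Agilent's processed signal. The cause was not tested. The selection repeated on the scanner values shared 194 of 200 targets with the members (97% of each list), 186 to 188 without 1 of the 3 low FS arrays, and 169 without FF1, SF1, SS1 and SS2. Few arrays per group and levels near background limit single members.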

Other observations

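Over all 24200 probes in the deposited log2 values, 4880 were at least 0.5 higher in FF, SF and SS than in F and S, and 1026 of these (21%) were at least 1 lower in FS1, FS2 and FS4 than in FF, SF and SS, while 742 (15.2%) were at least 1 higher. Of the 4199 probes at least 0.5 lower at T2, 576 (13.7%) were low in the 3 fish and 354 (8.43%) high. Of the 15121 between, 903 (5.97%) were low and 1298 (8.58%) high. Probes that changed with age thus held larger shares that were low in FS1, FS2 and FS4 than probes that did not, as a description of values that share the FF, SF and SS mean.

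The pattern of SS1, SS2, SF1 and FF1 as the 4 highest of 15 T2 fish, with a range of more than 3, was found in 134 probes of 62 targets. Their median rise with age was 1.01, and their median difference of FS1, FS2 and FS4 from FF, SF and SS was -0.97. Of the 134, 71 did not reach the limit of 1 for the lower level in the 3 FS fish, so the 13 members above belonged to a wider set of probes that were high in the same 4 fish.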
